A study of Mus musculus with 7 samples.

Results

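The 10 genes described here encode the ligands of the ErbB receptors, the family of receptor tyrosine kinases to which the epidermal growth factor receptor EGFR belongs. They were chosen by name among 35976 genes in a table of read counts: Tgfa, Hbegf, Btc, Egf, Areg and Ereg of the EGF family, and the neuregulins Nrg1, Nrg2, Nrg3 and Nrg4. The study addressed the part that Egfr in astrocytes plays in chronic stress. Male C57BL/6J mice received an adeno-associated virus in the amygdala with a guide RNA against Egfr (sgEgfr, 3 libraries) or against the Rosa26 locus (sgRosa, 4 libraries), and Cas9 was driven by the astrocyte promoter GfaABC1D. After more than 2 weeks of expression all mice of both groups went through tube restraint for 7 days, then fear conditioning for 1 day and extinction training for 3, so that no unstressed group was compared. Dissociated cells were pulled down through ACSA-2, a surface antigen of astrocytes, and 5 ng of their bulk RNA was sequenced. Sources used here give no age of the mice. The labels do not say whether 1 mouse gave 1 library, and p-values then measure only how far these libraries spread, which may be technical.

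ErbB ligands are made as precursors, most of them anchored in the cell membrane, and metalloproteases such as ADAM10 and ADAM17 cut the growth factor free. Tgfa, Egf and Areg encode ligands of EGFR, the products of Hbegf, Btc and Ereg bind ERBB4 as well, and neuregulins bind ERBB3 or ERBB4. In brain, transforming growth factor alpha (Tgfa) and heparin-binding EGF-like growth factor (Hbegf) are known as growth factors for glia, and neuregulin 1 (Nrg1) is known as a signal from neurons to glia.

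All ErbB ligands share a short EGF-like fold held by 6 cysteines, and its coding stretch is shown for 4 ligands from both branches, at high and low levels in these samples. The stretches were read from GENCODE M21 transcripts (mouse genome GRCm38), 5′ to 3′ on the coding strand, and the capitals mark the codons of the 6 cysteines. Tgfa lies at chr6:86195223-86275719 on the plus strand. Btc lies at chr5:91357261-91402994, Egf at chr3:129677565-129755316 and Nrg1 at chr8:31814551-32884029, all on the minus strand.
Tgfa: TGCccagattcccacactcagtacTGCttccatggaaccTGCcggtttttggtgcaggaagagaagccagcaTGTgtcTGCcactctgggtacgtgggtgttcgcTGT
Btc: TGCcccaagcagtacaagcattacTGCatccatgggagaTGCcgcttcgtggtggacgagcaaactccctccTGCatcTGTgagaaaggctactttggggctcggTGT
Egf: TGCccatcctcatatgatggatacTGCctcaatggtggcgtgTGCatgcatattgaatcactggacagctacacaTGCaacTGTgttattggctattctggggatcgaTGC
Nrg1: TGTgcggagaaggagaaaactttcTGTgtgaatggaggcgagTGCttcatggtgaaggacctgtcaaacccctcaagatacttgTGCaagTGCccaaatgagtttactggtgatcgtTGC
The cysteine spacing searched was 7 residues, 4 to 5, 10 to 13, 1 and 8 between successive cysteines, and it was found exactly 1 time in the transcript with the longest coding sequence of each of the 10 ligands. The stretch was 108 bases in Tgfa, Hbegf, Btc, Areg and Ereg, 111 in Egf, Nrg2 and Nrg4, 117 in Nrg3 and 120 in Nrg1. In all 10 an exon junction lay between the codons of cysteines 4 and 5, in Tgfa and Btc after base 77. Identity between stretches ran from 41.4% to 62.0% of aligned bases over 45 pairs, and the highest value was that of Btc with Tgfa and of Btc with Hbegf.

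The libraries held 5852870 to 22579222 counts. The counts of sgRosa 3 and sgRosa 4 agreed almost within sampling noise (chi-square 1.04 per degree of freedom, against 14.8 to 158 in the other 20 pairs), so they were summed to 1 sample, sgRosa 3+4, and each group has 3 samples. A count of 3, taken as the limit that a count of 0 allows, stood for 0.133 to 0.211 CPM (counts scaled to a common library total) in the 6 samples. Such limits cover counting error only. All 16 astrocyte markers listed, Aqp4, Gfap and Slc1a3 among them, were detected in every sample, with a summed level of 9070 to 12649 CPM in sgEgfr and 5801 to 14288 CPM in sgRosa. The 13 oligodendrocyte markers, such as Mbp and Mog, summed to 81664 to 144185 CPM in sgEgfr and 72745 to 108355 CPM in sgRosa, so that RNA of oligodendrocytes was abundant in cells labelled astrocyte. In bulk RNA, fewer cells of a type and less RNA per cell cannot be told apart.

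Egfr itself was detected in all samples, with 169, 87 and 184 counts in sgEgfr 1 to 3 and 188, 55 and 167 counts in sgRosa 1, 2 and 3+4. Its log2 fold change was -0.13 (SE 0.54, edgeR quasi-likelihood test, Benjamini-Hochberg adjusted p = 0.997), and the groups overlapped. Under the alternatives run, it ran from -1.55 (SE 0.94) with the score of neuron markers as a covariate to 0.84 (SE 0.65) with that of heat shock genes, without a call. The neuron score was largely confounded with the guide and the heat shock score partly, as given below. Cuts by Cas9 need not lower an mRNA, and the site of the guide is not known from the labels.

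Tgfa and Hbegf were the abundant ligands, Nrg1, Btc and Nrg2 were present at a low level, and Egf, Nrg3, Areg, Nrg4 and Ereg lay near the count floor. Of the 10 ligands, 6 had more than 3 counts in each of the 6 samples, against 40.3% of all genes in the table, and the same 6 passed the filter on low counts (Tgfa, Hbegf, Btc, Egf, Nrg1 and Nrg2). Areg, Ereg, Nrg3 and Nrg4 did not pass it. With the 7 libraries taken separately, Egf dropped out, since it had 9 counts in sgRosa 3 and 0 in sgRosa 4.

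Levels of different genes were compared per kilobase of the longest transcript that codes for protein. Tgfa averaged 38.3 ± 9.30 CPM per kilobase (SD, n = 6 samples) and Hbegf 16.3 ± 3.90. Btc, Nrg1 and Nrg2 followed at 1.18 ± 0.866, 1.08 ± 0.445 and 0.721 ± 0.255 CPM per kilobase. Tgfa was above Hbegf in 6 of 6 samples and Hbegf was above Btc in 6 of 6, with ranges that did not overlap. From Btc downward, each ligand's range overlapped that of the next. Across tiers they were apart in part: the lowest values of Btc (0.463), Nrg1 (0.528) and Nrg2 (0.375) lay above the highest values of Egf (0.198), Nrg4 (0.163) and Ereg (0.0953). The ranges of Btc, Nrg1 and Nrg2 overlapped each other. That of Nrg2 also overlapped those of Areg and Nrg3, and that of Btc overlapped that of Areg, whose highest value was 0.504. Tgfa made up 65.8% and Hbegf 28.0% of the summed level of the 10 ligands per kilobase. Areg averaged 0.178, Egf 0.148, Nrg3 0.141, Nrg4 0.104 and Ereg 0.0159 CPM per kilobase. With the median over samples in place of the mean, Nrg1 and Nrg2 stood above Btc. With the length of all annotated exons together, Nrg2 stood above Nrg1.

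**Figure D1:**
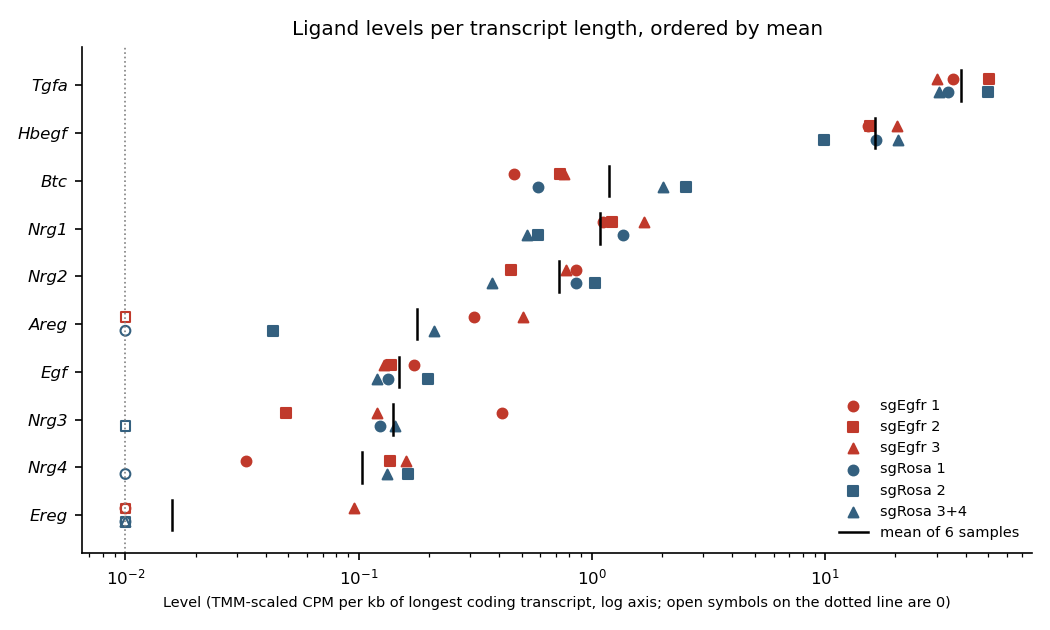
Level of each ligand in each sample, in TMM-scaled CPM per kilobase of the longest protein-coding transcript on a log axis. Red symbols are sgEgfr samples, blue symbols sgRosa samples, black lines the mean of 6 samples, and open symbols on the dotted line are values of 0. Tgfa (30.1 to 50.3) and Hbegf (9.90 to 20.5) stand apart from the other 8 ligands, whose highest value is 2.53.

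No ligand was called different between sgEgfr and sgRosa. Of the 6 ligands tested with edgeR, 0 passed an adjusted p under 0.05, as did 0% of 14936 genes. At an unadjusted p under 0.05 there was 1 ligand, Btc, against 2.68% of all genes, and it was lower in sgEgfr, as were 1.37% of all genes at that p. DESeq2 called 0 ligands, with 1 at an unadjusted p under 0.05, and limma-voom called 0, with 0. The log2 fold changes were positive for 3 and negative for 3 of the 6, against 52.9% positive among all genes, with a median of -0.02, where all genes tested had a median of 0.02. Separate CPM ranges in sgEgfr and sgRosa were found for 0 of the 6 and for 7.61% of genes tested.

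**Figure D2:**
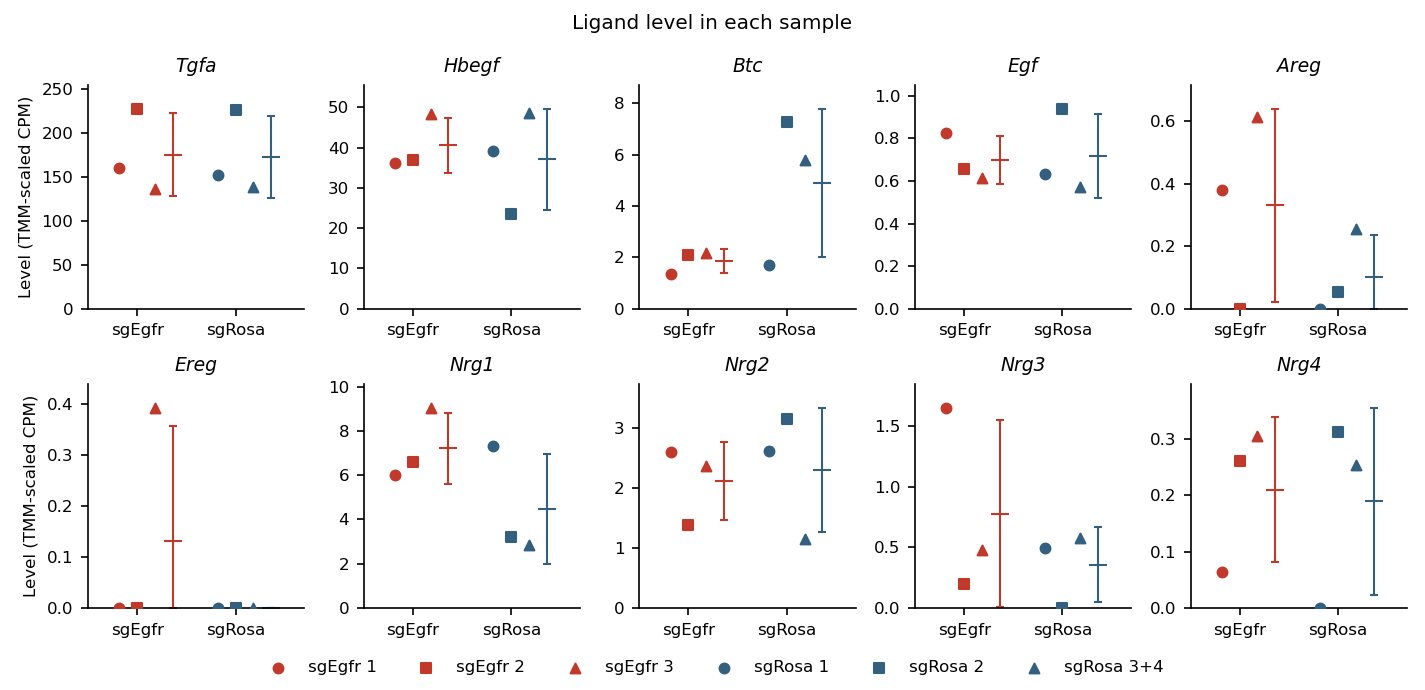
TMM-scaled CPM of each ligand by sample, with the mean and SD of each group of 3 samples beside the points and each axis starting at 0. sgEgfr stands left of sgRosa in each panel, and the groups overlap for all 10 ligands.

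Tgfa, a ligand of EGFR alone among the receptors, had the log2 fold change nearest 0 of the tested ligands. Its level was 160.3, 228 and 136 CPM in sgEgfr 1, 2 and 3, against 153, 226 and 139 CPM in sgRosa 1, 2 and 3+4. Each group thus held 1 high sample, numbered 2, and 2 lower samples. The means were 175 ± 47.2 CPM in sgEgfr and 172 ± 46.9 CPM in sgRosa (SD, n = 3 each), a log2 fold change of 0.02 (SE 0.26, 95% confidence interval -0.59 to 0.63, edgeR adjusted p = 0.997). With a sample left out, the log2 fold change ran from -0.24 (without sgEgfr 2) to 0.26 (without sgRosa 2).

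Hbegf, which encodes a ligand of EGFR and ERBB4 and also serves as the cell surface receptor of diphtheria toxin in primates, lies at chr18:36504927-36515805. Its level was 36.3, 37.0 and 48.3 CPM in sgEgfr 1, 2 and 3, against 39.0, 23.5 and 48.6 CPM in sgRosa 1, 2 and 3+4. sgRosa 2 was the low sample, and the highest values of the 2 groups were nearly equal. On the log2 scale the difference was 0.13 (SE 0.27) with a 95% confidence interval of -0.50 to 0.76 and an edgeR adjusted p of 0.997. It ran from -0.11 without sgRosa 2 to 0.38 without sgRosa 3+4. The ratio of Tgfa to Hbegf per kilobase was 2.32, 3.23 and 1.48 in sgEgfr 1 to 3, against 2.05, 5.04 and 1.496 in sgRosa 1, 2 and 3+4. It was highest in sgRosa 2, the sample with the lowest Hbegf and the second highest Tgfa.

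Btc, betacellulin, a ligand of EGFR and ERBB4, had the largest fold change of the tested ligands. It had 21, 32 and 50 counts in sgEgfr 1 to 3, against 24, 139 and 91 counts in sgRosa 1, 2 and 3+4. In CPM these were 1.33, 2.09 and 2.19 in sgEgfr, against 1.69, 7.26 and 5.79 in sgRosa. The groups overlapped through sgRosa 1, which lay within the range of sgEgfr, while sgRosa 2 and sgRosa 3+4 lay above all sgEgfr samples. The means were 1.87 ± 0.469 CPM in sgEgfr and 4.91 ± 2.89 CPM in sgRosa (SD, n = 3 each), a log2 fold change of -1.39 (SE 0.56, 95% confidence interval -2.69 to -0.10) that had an unadjusted edgeR p of 0.0385 and an adjusted p of 0.997. It ran from -1.80 without sgRosa 1 to -0.998 without sgRosa 2, with no call in either.

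Endothelial and neuron markers differed between the same samples as Btc, in the opposite direction. The 11 endothelial markers, such as Cldn5 and Pecam1, summed to 90.3, 81.4 and 68.4 CPM in sgEgfr 1 to 3, against 73.8, 49.2 and 45.6 CPM in sgRosa 1, 2 and 3+4. The 13 neuron markers, such as Snap25 and Syt1, summed to 459, 558 and 535 CPM in sgEgfr, against 477, 325 and 362 CPM in sgRosa, and 1 of them was at 0 in some sample. The 2 sgRosa samples with high Btc were thus the 2 samples with the lowest sum of both lists. The 8 heat shock genes summed to 1076 to 1512 CPM in sgEgfr and 676 to 1145 CPM in sgRosa. When the score of a list (the mean log2 CPM of its genes, centred over samples) was added to the model, the log2 fold change of Btc was -0.03 for the endothelial list, 0.66 for the neuron list and -2.44 for the heat shock list, without a call in any. The neuron score was higher in every sgEgfr sample (0.208 to 0.400) than in every sgRosa sample (-0.594 to -0.017), so it was largely confounded with the guide. With that score in the model the SE of Btc was 1.09, against 0.56 without it. The heat shock score overlapped between guides only through sgRosa 2 (0.040, against 0.035 in sgEgfr 1). The endothelial score overlapped only through sgRosa 1 (0.294). Both were thus partly confounded with the guide. The part of these markers in the Btc values was not tested beyond these fits.

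Egf, the founding member of the family, was close to the floor in every sample. It had 13, 10 and 14 counts in sgEgfr 1 to 3, against 9, 18 and 9 counts in sgRosa 1, 2 and 3+4. Its level was 0.697 ± 0.112 CPM in sgEgfr and 0.716 ± 0.197 CPM in sgRosa (SD, n = 3 each), a log2 fold change of -0.05 (SE 0.50, 95% confidence interval -1.23 to 1.13, edgeR adjusted p = 0.997). For 10 counts, the exact 95% Poisson interval is 4.80 to 18.4, so that differences of this size between samples were not detectable at this depth. The split of 9 counts in sgRosa 3 and 0 in sgRosa 4 had an exact binomial p of 0.0314, and 0.282 after adjustment over 9 ligands.

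Areg and Ereg, which encode amphiregulin and epiregulin, were mostly at or under the floor. Areg had 6, 0 and 14 counts in sgEgfr 1 to 3, against 0, 1 and 4 counts in sgRosa 1, 2 and 3+4 (exact two-sided permutation test on CPM, p = 0.4, where 0.1 is the smallest that 3 samples against 3 allow). Ereg had 0, 0 and 9 counts in sgEgfr 1 to 3 and 0 in every sgRosa sample, so that its reads came from 1 of 7 libraries. The 9 counts have an exact 95% Poisson interval of 4.12 to 17.1. For 0 counts the upper end of that interval was 0.260, 0.201 and 0.234 CPM in sgRosa 1, 2 and 3+4. The exact permutation p of Ereg was 1, the only value possible when 1 sample alone holds reads, so it says nothing about the guide. Areg, Ereg and Btc lie in 1 stretch of chromosome 5 with Epgn, the gene of epigen, another ErbB ligand. The 4 genes span 375.5 kilobases of GRCm38 with no other protein-coding gene between neighbours in GENCODE M21. Epgn had 0 counts in all 7 libraries.

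Nrg1, a ligand of ERBB3 and ERBB4, was the most abundant neuregulin by mean level per kilobase of the longest coding transcript. The ranges of Nrg1 and Nrg2 overlapped, and Nrg2 stood above Nrg1 with the length of all annotated exons together. The level of Nrg1 was 6.02, 6.61 and 9.05 CPM in sgEgfr 1, 2 and 3, against 7.34, 3.19 and 2.86 CPM in sgRosa 1, 2 and 3+4. sgRosa 1 lay within the range of sgEgfr, and the other sgRosa samples lay below it, the reverse of the pattern of Btc. The means were 7.23 ± 1.60 CPM in sgEgfr and 4.46 ± 2.50 CPM in sgRosa (SD, n = 3 each), a log2 fold change of 0.70 (SE 0.43, 95% confidence interval -0.31 to 1.71, edgeR adjusted p = 0.997). It ran from 0.47 without sgRosa 3+4 to 1.26 without sgRosa 1. Neurons are a known source of Nrg1, and the samples with low Nrg1 were those with the lowest sums of neuron markers given above. The same samples had the lowest sums of endothelial markers. With the neuron score as a covariate the log2 fold change of Nrg1 was -0.47 (SE 0.68). It was 0.28 with the endothelial score and 1.52 with the heat shock score, without a call in any. The neuron score was largely confounded with the guide, and the endothelial and heat shock scores partly, as given above. The part of neuronal RNA in these values was not tested beyond these fits.

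**Figure D3:**
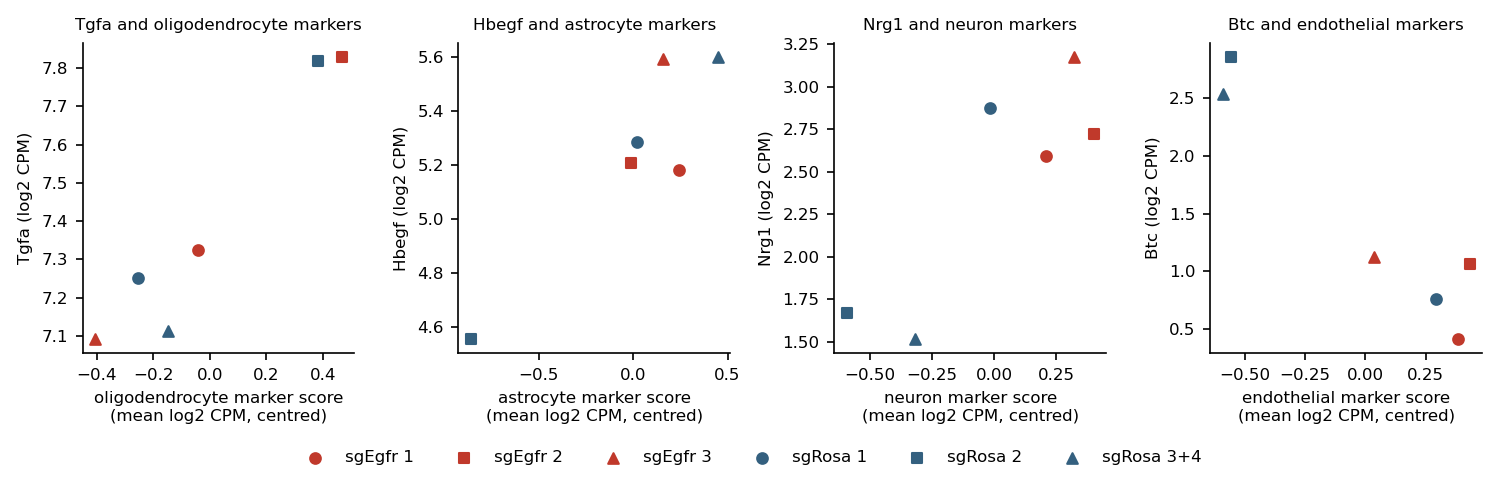
Level of Tgfa, Hbegf, Nrg1 and Btc (log2 CPM) against the score of a marker list (mean log2 CPM of its members, centred over the 6 samples), with sgEgfr samples in red and sgRosa samples in blue. sgRosa 2 and sgRosa 3+4 have the lowest neuron and endothelial scores, the lowest Nrg1 (3.19 and 2.86 CPM) and the highest Btc (7.26 and 5.79 CPM).

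Nrg2, which like Nrg1 binds ERBB3 and ERBB4, had 41, 21 and 54 counts in sgEgfr 1 to 3, against 37, 60 and 18 counts in sgRosa 1, 2 and 3+4. The means were 2.11 ± 0.650 CPM in sgEgfr and 2.30 ± 1.03 CPM in sgRosa (SD, n = 3 each), with a log2 fold change of -0.12 (SE 0.49, 95% confidence interval -1.25 to 1.01, edgeR adjusted p = 0.997). The ratio of Nrg1 to Nrg2 per kilobase was 1.31, 2.71 and 2.16 in sgEgfr 1 to 3, against 1.59, 0.574 and 1.41 in sgRosa 1, 2 and 3+4. Nrg1 was thus above Nrg2 in 5 of 6 samples by the length of the longest coding transcript. This order depended on the length used, since Nrg2 had the higher mean with the length of all annotated exons together.

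Nrg3 and Nrg4 encode ligands of ERBB4. Nrg3 had 26, 3 and 11 counts in sgEgfr 1 to 3, against 7, 0 and 9 counts in sgRosa 1, 2 and 3+4, and sgEgfr 1 alone held 26 of the 40 counts of its group (exact permutation p = 0.6). Nrg4 had 1, 4 and 7 counts in sgEgfr 1 to 3, against 0, 6 and 4 counts in sgRosa 1, 2 and 3+4 (exact permutation p = 0.8). The span of Nrg4 overlaps Fbxo22 on the opposite strand, a coding gene with 2611 counts over all libraries. The strand setting of the counting was not given, so whether some of the few reads of Nrg4 came from that gene is not known.

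The spread between samples differed among the ligands. Tgfa and Hbegf had edgeR biological coefficients of variation of 0.245 and 0.263, at percentiles 33.7 and 38.2 of all genes tested. Btc stood at 0.525, percentile 87.9, and Nrg2 and Nrg1 at 0.461 and 0.453, percentiles 80.5 and 78.9. Over the 6 samples the highest CPM of Btc was 5.45 times the lowest, against 1.67 times for Tgfa and 2.07 times for Hbegf.

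Tgfa and Hbegf were set against 11 marker lists over the 6 samples, in tests chosen after the data were seen. Over the 6 tested ligands this made 66 relations, of which 8 had a raw exact permutation p under 0.05 and 0 an adjusted one. For 6 of these 8, 2 samples stood at 1 end of the marker score, apart from the other 4, so no pooled value is given. These relations were Tgfa with the oligodendrocyte list, Tgfa and Hbegf each with the ependymal and choroid list, Btc with the endothelial and the neuron list, and Nrg1 with the neuron list. Over the other 4 samples, r was 0.667 for Tgfa with the oligodendrocyte list. With the ependymal and choroid list it was -0.981 for Tgfa and 0.964 for Hbegf. For Btc it was -0.471 with the endothelial and 0.528 with the neuron list, and for Nrg1 0.061 with the neuron list. An r over 4 samples carries little weight. Hbegf with the endothelial list, which was not among these 8, reached -0.982 without sgRosa 2 and sgRosa 3+4. The oligodendrocyte list summed to 103286, 144185 and 81664 CPM in sgEgfr 1 to 3, against 72745, 108355 and 94859 CPM in sgRosa 1, 2 and 3+4. sgEgfr 2 and sgRosa 2 were thus the highest samples of both the list and Tgfa. The 6 ependymal and choroid markers, Foxj1, Ccdc153, Tmem212, Ttr, Kl and Folr1, summed to 60.9, 25.3 and 689 CPM in sgEgfr 1 to 3, against 91.0, 44.8 and 258 CPM in sgRosa 1, 2 and 3+4, and 3 of them were at 0 in some sample. The same samples, sgEgfr 2 and sgRosa 2, were the lowest of that list.

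The other relations were those of Hbegf and Tgfa with the astrocyte list. Hbegf had r = 0.917 with the astrocyte score (n = 6, exact permutation p = 0.0292, adjusted p = 0.385; Spearman rho = 0.657, exact permutation p = 0.175, adjusted p = 0.608). Without sgRosa 2 and sgRosa 3+4, the samples farthest from the median score, r was 0.167, so this relation rested on those samples. Tgfa had r = -0.741 (n = 6, exact permutation p = 0.0389, adjusted p = 0.401; Spearman rho = -0.657, exact permutation p = 0.175, adjusted p = 0.608), and -0.569 without the same samples. All scores share the library and its scaling with the ligands, and 3 samples a guide were too few to give a value within each guide.

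Other genes of the pathway were described from lists that hold the receptors, enzymes and other proteins of ligand processing, and other proteins listed as ErbB-binding. Of the 4 receptors, 0 were called higher and 0 lower with edgeR, 0 at an unadjusted p under 0.05, with a median log2 fold change of -0.17. Erbb4, the receptor shared by most neuregulins, had -0.20 (SE 0.18), Erbb3 had -0.24 (SE 0.27), and Erbb2, a receptor with no ligand of its own, had 0.07 (SE 0.45). Erbb4 averaged 36.5 ± 5.73 CPM in sgEgfr and 42.0 ± 5.48 CPM in sgRosa, and Egfr 8.15 ± 2.51 CPM in sgEgfr and 8.92 ± 5.40 CPM in sgRosa (SD, n = 3 each). Of the 10 genes of ligand processing, 4 had positive and 6 negative log2 fold changes, with 0 called and 0 at an unadjusted p under 0.05, and a median of -0.03.

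Adam10, a sheddase that cuts several ErbB ligands from the membrane, had the smallest unadjusted p of the processing genes. It averaged 147 ± 19.4 CPM in sgEgfr and 205 ± 45.3 CPM in sgRosa (SD, n = 3 each), a log2 fold change of -0.48 (SE 0.21, 95% confidence interval -0.97 to 0.01, edgeR unadjusted p = 0.0539, adjusted p = 0.997). Timp3, an inhibitor of ADAM17, had 0.25 (SE 0.25), Adam9 had 0.18 (SE 0.20), and Bace1, a protease that cleaves NRG1, had -0.15 (SE 0.24). Among the other proteins listed as ErbB-binding, 2 had positive and 1 a negative log2 fold change and 0 were called. Cspg5, or neuroglycan C, had 0.06 (SE 0.22), Tmeff1 had 0.12 (SE 0.28) and Tmeff2 had -0.21 (SE 0.25).

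**Figure D4:**
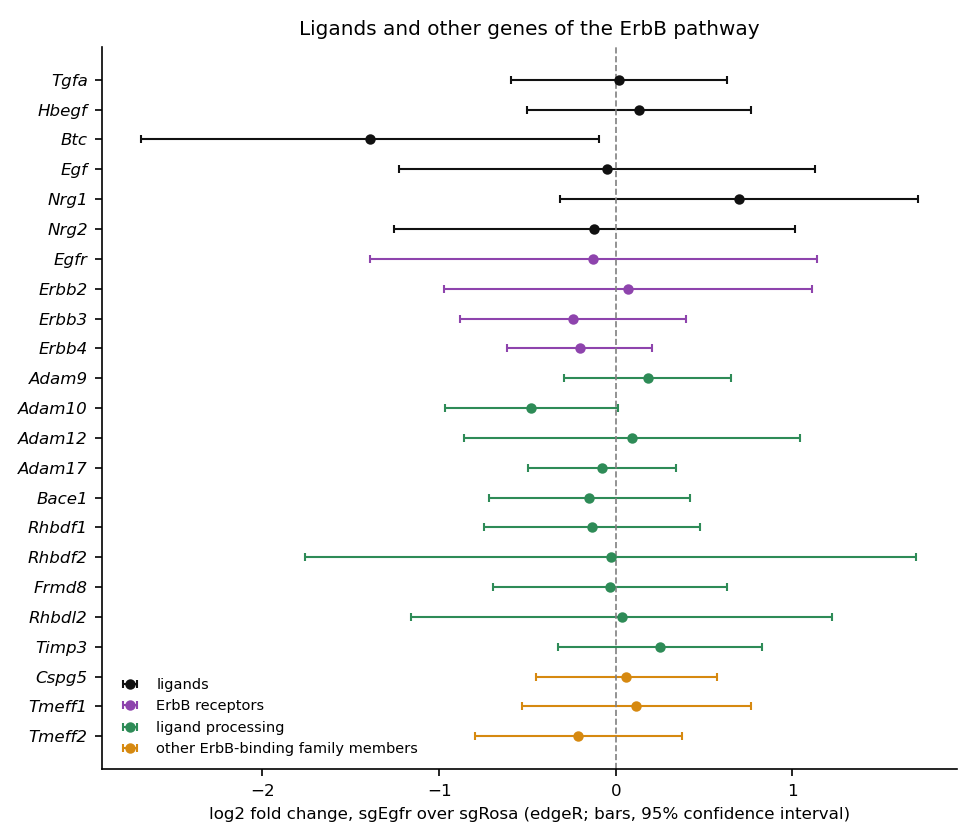
Log2 fold change, sgEgfr over sgRosa, of the 6 tested ligands and 17 other genes of the ErbB pathway, with 95% confidence intervals from edgeR. The interval of Btc (-2.69 to -0.10) is the one that does not reach 0, and no gene has an adjusted p under 0.05.

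The log2 fold changes of Btc and Nrg1 changed sign only under the neuron covariate among the 20 alternatives run. With it they were 0.66 (SE 1.09) for Btc and -0.47 (SE 0.68) for Nrg1. That score was higher in every sgEgfr sample than in every sgRosa sample, so that guide and score were largely confounded in this fit. Over other scalings, filters, tests and treatments of sgRosa 3 and 4, without such covariates, Btc stayed between -1.45 and -1.22 with all samples and Nrg1 between 0.68 and 0.87. None of the 20 alternatives called either gene.

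**Figure D5:**
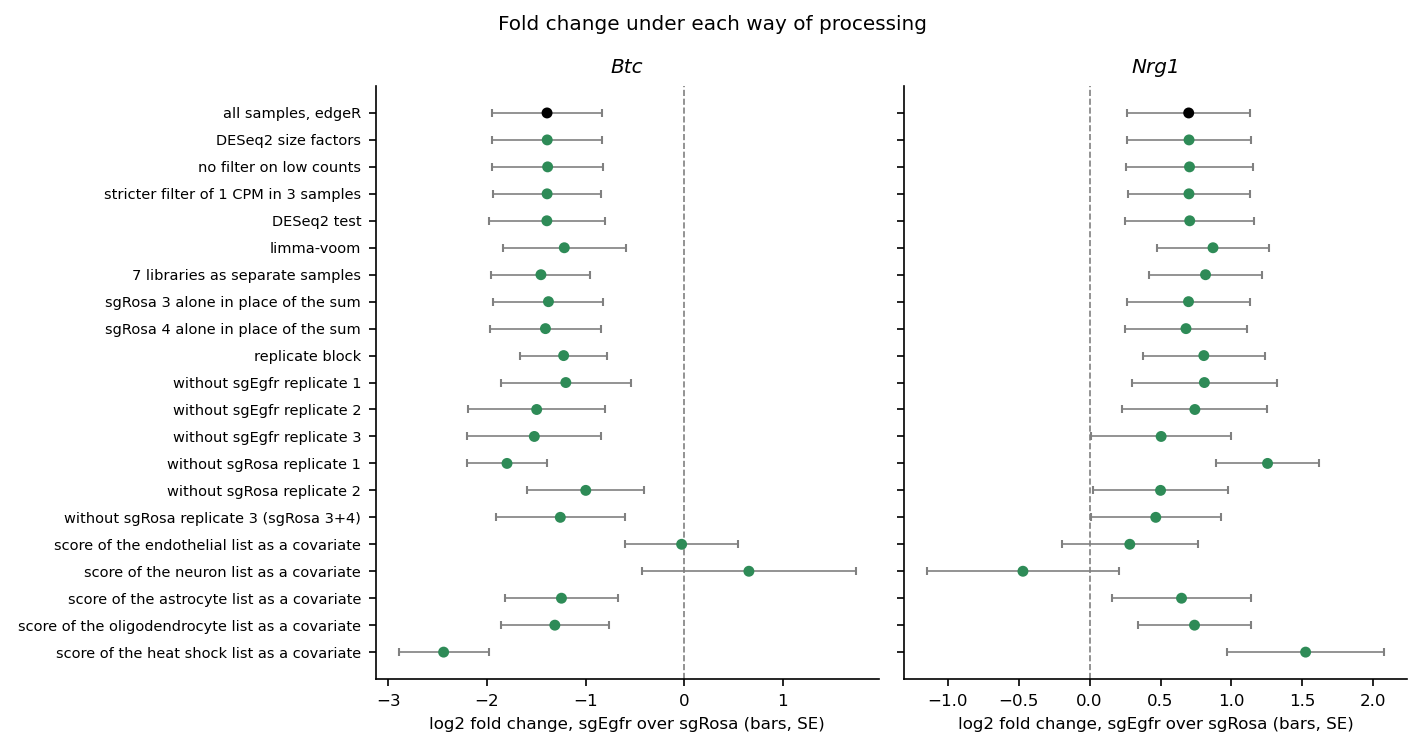
Log2 fold change, sgEgfr over sgRosa, of Btc and Nrg1 with all samples (black) and under each alternative (green), with SE. Btc runs from -2.44 with the heat shock score in the model to 0.66 with the neuron score, and Nrg1 from -0.47 with the neuron score to 1.52 with the heat shock score.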

How the data were processed

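Raw read counts were deposited by the authors without normalisation, in 1 table of 35976 genes by 7 libraries and again in 1 file per library with the same values. Per the submitters' processing notes, the build was mm10 and the tools were fastp 0.23.2, STAR 2.7.5c, featureCounts 2.0.1, FastQC 0.11.9, MultiQC 1.11 and edgeR 3.42.4. Which annotation and strand setting were used, and how multi-mapping reads were treated, is not given in the sources used here.

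The counts of sgRosa 3 and sgRosa 4 were summed. Genes were kept with filterByExpr (minimum count 10, total 15), scaled with TMM and tested across all 14936 genes with glmQLFit and glmQLFTest in edgeR 4.0.16 (R 4.3.3) in a model of guide alone, with Benjamini-Hochberg adjustment over those genes. The procedure was tested on simulated data. The common biological coefficient of variation was 0.386. CPM of single genes are TMM-scaled, and sums of marker lists are shares of the total count. Lengths, positions and coding stretches came from GENCODE M21 (GRCm38, the build of mm10). DESeq2 1.42.0 and limma 3.58.1 served as alternatives, and figures were drawn with matplotlib 3.10.9. Depth was 5852870 to 22579222 counts, without stated molecular identifiers.

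All 10 ligands are named. Pathway lists of up to 6 genes are given in full and longer ones by the 4 genes with the smallest p, and marker lists as sums. The members and lists were chosen with earlier results of these data known. No table of proteins was used, so protein lengths are not reported. The cysteine spacing was searched in the translated coding sequence, and the stretches were compared as bases. The genes most like Btc over samples are not reported here.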

Additional observations from a re-analysis of the deposited data

How the results depend on the processing

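No ligand, receptor, processing gene or other gene of the 14936 was called at an adjusted p under 0.05 with edgeR (401 at an unadjusted p under 0.05), nor under any of the 20 alternatives run. Egf had 18 of these, since it was not tested with the stricter filter or without sgRosa 2. Of 17 named genes, Erbb3 and Adam10 kept their sign under every alternative and 15 did not. With the neuron score as a covariate the log2 fold change was -0.55 for Hbegf, 0.66 for Btc, 0.64 for Egf, -0.47 for Nrg1, 0.33 for Nrg2, 0.058 for Erbb4, -0.030 for Cspg5, 0.075 for Tmeff2, -0.32 for Timp3 and 0.049 for Bace1, all of the opposite sign, and -1.55 for Egfr, 0.87 for Adam9 and 1.10 for Tmeff1. With the heat shock score it was -0.28 for Tgfa, 0.13 for Nrg2, 0.84 for Egfr, -0.43 for Tmeff1 and -0.11 for Adam9. With the astrocyte score it was -0.012 for Hbegf, 0.12 for Egf, 0.18 for Nrg2, -0.13 for Erbb2, -0.060 for Cspg5 and -0.41 for Egfr, with the endothelial score 0.024 for Egf and -0.55 for Egfr, and with the oligodendrocyte score 0.091 for Egfr. With 7 libraries as separate samples it was 0.073 for Egf, 0.067 for Nrg2, -0.11 for Erbb2 and -0.011 for Cspg5, with sgRosa 4 alone 0.23 for Egf, and with limma-voom 0.18 for Egfr. Values with the neuron score come from a fit in which score and guide were largely confounded. That score was higher in every sgEgfr than in every sgRosa sample. The heat shock and endothelial scores were partly confounded with the guide. The cause was not tested.

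With 1 sample left out, values ran from -0.24 to 0.26 for Tgfa, -0.11 to 0.38 for Hbegf, -1.80 to -0.998 for Btc, -0.19 to 0.040 for Egf, 0.47 to 1.26 for Nrg1, -0.44 to 0.17 for Nrg2, -0.55 to 0.27 for Egfr, -0.18 to 0.53 for Erbb2, -0.58 to -0.024 for Erbb3, -0.34 to -0.12 for Erbb4, -0.10 to 0.20 for Cspg5, -0.10 to 0.45 for Tmeff1, -0.40 to -0.0045 for Tmeff2, -0.64 to -0.35 for Adam10, 0.026 to 0.40 for Timp3, 0.042 to 0.42 for Adam9 and -0.26 to -0.0083 for Bace1. Within these ranges, Egfr was at 0.019 without sgRosa 3+4, Nrg2 at -0.30 without sgEgfr 1 and Erbb2 at 0.28 without sgEgfr 2.

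With the replicate number as a block, Egfr had 0.060, Btc -1.22 and Nrg1 0.81, with 0 genes called and 705 at an unadjusted p under 0.05. The deviations of same-numbered samples correlated at -0.12, 0.53 and 0.55, and 4 of 6 samples correlated best with their own number. Since 1 of the 3 lay under 0.1, the numbers were not taken to pair the samples, and whether they mark a shared batch is not known. The number of ligands at the same place in the order per kilobase was 3 with medians, 6 with the length of all exons together and 6 to 10 with 1 sample left out. The 2 length alternatives, the tests with marker scores over samples and their values without 2 samples were added after the data were seen. The planned order by protein length was not run. A count of 3 was 0.133 to 0.211 CPM, which limits what can be said of Areg, Ereg, Nrg3, Nrg4 and Egf.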

Other observations

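sgEgfr 3, the deepest sample with 22579222 counts, held most reads of Areg and all reads of Ereg. It had 14 of the 20 counts of Areg in sgEgfr and 9 counts of Ereg, or 0.612 and 0.393 CPM, and its Areg level was the highest of the 6 samples. The 8 immediate early genes listed, which cells switch on after stimulation, summed to 1686, 3093 and 3369 CPM in sgEgfr 1 to 3, against 1085, 2019 and 1035 CPM in sgRosa 1, 2 and 3+4, so that sgEgfr 3 was also the highest sample for that list. It was the highest for ependymal and choroid markers as well, with 689 CPM. The part of these lists in the ligand values was not tested.

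The genes whose log2 CPM followed Tgfa, Hbegf, Nrg1 and Nrg2 most closely over the 6 samples, among those with a mean of at least 5 CPM, are given as a description with Pearson's r, since all share the libraries and their scaling. They were Sept7 (r = 0.994) and Cnep1r1 (r = 0.993) for Tgfa and Bcar3 (r = 0.996) and Thnsl2 (r = 0.995) for Hbegf. For Nrg1 they were Orc3 (r = 0.993) and Coq10b (r = 0.984), and for Nrg2 Mdc1 (r = 0.992) and Kbtbd7 (r = 0.980). Of the 10825 genes compared with Tgfa, 412 had an r of at least 0.9, as did 330 with Hbegf, 50 with Nrg2, 23 with Nrg1 and 13 with Btc. With 6 samples, many genes reach such values.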
